A study of Mus musculus with 12 samples.

Results

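*Dnmt1*, *Dnmt3a*, *Tet2*, *Hells*, *Idh1* and *Idh2* are 6 of the 770 genes of the NanoString® mouse panel on which *Dusp4* was silenced in a pair of murine hepatocellular carcinoma (HCC) lines. They were taken by name, as the genes that write, remove or support DNA methylation and the isocitrate dehydrogenases that feed the enzymes removing it. All 6 were above the floor of the deposited values in all 12 samples and were tested in every comparison. Only mRNA was measured, and DNA methylation itself was not.

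The experiment held 12 samples in 4 groups of 3 biological replicates. The AKT/NRAS line came from a mouse liver tumour raised by hydrodynamic injection of myristoylated AKT flanked by loxP sites together with activated NRAS. AKT Cre/NRAS (AKT/NRAS Cre in the sample labels) is its derivative after transfected Cre recombinase had taken the AKT construct out, so all 12 samples carried NRAS. Each line was transfected in repeated rounds with a *Dusp4* siRNA pool (siRNA) or a control pool (SCR). Each genotype is therefore represented by 1 line, and a difference between the lines cannot be told apart from a difference between these particular cultures. DUSP4 is a nuclear phosphatase that inactivates MAP kinases.

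DNA methyltransferases place methyl groups on cytosines, mostly in CpG pairs. DNMT1 copies the pattern onto the new strand after replication, and DNMT3A sets new marks. HELLS, also called LSH, is a chromatin remodeller that gives the methyltransferases access to packed DNA. TET2 starts removal of the mark by oxidising 5-methylcytosine, and it needs 2-oxoglutarate, the product of the reaction that IDH1 runs in the cytosol and peroxisomes and IDH2 in mitochondria. Mutant IDH1 or IDH2 makes 2-hydroxyglutarate in place of it, which blocks TET enzymes, and such mutations are known in intrahepatic cholangiocarcinoma. In the adult liver *Idh1* is abundant, while *Dnmt1* and *Hells* are typical of dividing cells.

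The start-site windows of the genes on which the comparisons below turn are shown with their CpG content, the substrate of the enzymes themselves. RefSeq windows (GRCm38.p6, 250 bases before to 50 after a start) were matched for all 6 genes, with 11 windows among them. *Dnmt1* lies on chromosome 9 at 20907206-20959888 (minus strand), *Dnmt3a* on chromosome 12 at 3801559-3914443 (plus) and *Hells* on chromosome 19 at 38930262-38970470 (plus). *Idh1* is on chromosome 1 at 65158616-65186479 (minus), *Idh2* on chromosome 7 at 80094845-80118608 (minus) and *Tet2* on chromosome 3 at 133463677-133545136 (minus). For *Dnmt1* and *Dnmt3a* the window richest in CpG was chosen. Sequences run 5′ to 3′ on the gene's strand, and capitals mark matches, on either strand, to TTTNNCGC (an E2F-type motif) and to GGGCGG (an Sp1-type motif).
Dnmt1, chr9:20952574-20952873, minus strand: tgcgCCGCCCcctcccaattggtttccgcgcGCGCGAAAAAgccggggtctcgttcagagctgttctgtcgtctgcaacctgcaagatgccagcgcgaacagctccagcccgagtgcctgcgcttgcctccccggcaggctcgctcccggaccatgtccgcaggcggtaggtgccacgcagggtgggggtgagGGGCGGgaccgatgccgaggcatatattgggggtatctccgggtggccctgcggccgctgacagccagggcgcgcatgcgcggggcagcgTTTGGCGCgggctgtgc
Dnmt3a, chr12:3806910-3807209, plus strand: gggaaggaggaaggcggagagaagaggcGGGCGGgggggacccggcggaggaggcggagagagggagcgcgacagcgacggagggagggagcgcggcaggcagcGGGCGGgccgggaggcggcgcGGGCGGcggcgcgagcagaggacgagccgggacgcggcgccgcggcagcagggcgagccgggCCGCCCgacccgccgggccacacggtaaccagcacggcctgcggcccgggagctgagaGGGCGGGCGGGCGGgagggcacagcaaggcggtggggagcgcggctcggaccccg
Hells, chr19:38930740-38931039, plus strand: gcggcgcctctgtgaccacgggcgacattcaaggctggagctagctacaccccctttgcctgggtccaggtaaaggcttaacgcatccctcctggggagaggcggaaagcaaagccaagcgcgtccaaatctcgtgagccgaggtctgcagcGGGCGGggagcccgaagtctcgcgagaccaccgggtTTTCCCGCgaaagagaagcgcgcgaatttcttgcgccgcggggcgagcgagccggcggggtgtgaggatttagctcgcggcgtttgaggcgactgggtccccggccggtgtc
The *Dnmt1* window held 33 CpG pairs, the *Dnmt3a* window 47 and the *Hells* window 34, and 91.4%, 98.6% and 92.3% of the 32851 mouse windows held fewer. The *Tet2* window was richer still, with 57 CpG pairs, while the richest windows of *Idh1* and *Idh2* held 23 and 20 against a median of 7 over all windows. TTTNNCGC occurred 3 times in the *Dnmt1* window, with 1 overlapping pair, and 1 time in the *Hells* window, and 5.17% of all windows held it. GGGCGG was found in all 3 windows shown and in 35.7% of all windows. These matches describe the letters of the windows.

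The depth of the libraries was 641790 to 1081646 barcode counts, recovered from the deposited values, and between 252 and 293 of the 770 genes per sample stood at the floor. *Dusp4* was lower under siRNA in both lines, with 350, 389 and 371 normalized counts against 1273, 1226 and 1186 in AKT/NRAS and 4126, 4174 and 3769 against 6343, 5843 and 4483 in AKT Cre/NRAS. The log2 fold change of *Dusp4* was -1.73 in AKT/NRAS (adjusted p = 1.13e-06 by limma), called under all 22 alternatives, and -0.45 in AKT Cre/NRAS (adjusted p = 0.0178), called under 13 of 22. In AKT Cre/NRAS it ran from -0.81 to 0.00098 over 8 scalings and was called in 5 of them, but not with the values as deposited (-0.54, adjusted p = 0.370) or with the first 10 (-0.27, adjusted p = 0.205) or first 5 reference genes (adjusted p = 0.997). Its call there was also lost without siRNA replicate 1 (adjusted p = 0.0596), siRNA replicate 3 (0.0674) or SCR replicate 2 (0.0677). The liver markers *Ghr*, *Sox9*, *Spp1*, *Met* and *Fgfr4* were above the floor in all 12 samples, while *Igf1* and *Pck1* were at the floor in all 12. Of 8 leukocyte markers, 6 were at the floor in every group, as were 3 of 5 stromal and 1 of 2 endothelial markers. The summed liver markers, of which *Spp1* was by far the brightest, ran from 105391 to 164344 in AKT Cre/NRAS and from 17524 to 22318 in AKT/NRAS. The summed stromal markers ran from 269 to 513 and from 56.6 to 104, the endothelial from 239 to 495 and from 933 to 1403, and the leukocyte from 1657 to 1831 and from 1355 to 1534, in the same order of lines. These sums hold few genes and are no cell type signature. The endothelial sum is *Flt1* alone, the leukocyte sum *Cd14* with *Tlr2* (at most 52.4), and the stromal sum *Pdgfra* with *Col1a1* (at most 47.5). The AKT Cre/NRAS SCR samples stood apart from the rest. Their log2 ratio of *Rpl19* (a ribosomal protein) to *Polr2a* (an RNA polymerase subunit) ran from 5.48 to 6.88, against 4.72 to 5.03 in AKT Cre/NRAS siRNA and 3.81 to 3.92 in AKT/NRAS. All results below that use those 3 samples rest on libraries of this kind.

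Normalized counts here are deposited values brought to a common level by 15 of the 20 reference genes of the panel, with a floor of 27.1. *Rpl19* is 1 of the 15. The level depended on the choice of genes. After siRNA in AKT Cre/NRAS the median log2 fold change of the panel was 0.23 with these 15, 0.16 with all 20 and 0.67 with the first 5. Because each probe binds its own target, levels are compared between samples and not between genes. The precision differed among the genes. *Dnmt3a* rested on 27 to 73 barcode counts per sample, *Dnmt1*, *Tet2*, *Hells* and *Idh2* on 159 to 530, and *Idh1* on 2219 to 5335. Over all 12 samples the highest value exceeded the lowest 2.65-fold for *Hells*, 2.43-fold for *Dnmt3a*, 1.88-fold for *Idh1*, 1.79-fold for *Dnmt1*, 1.5-fold for *Idh2* and 1.41-fold for *Tet2*.

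**Figure D1:**
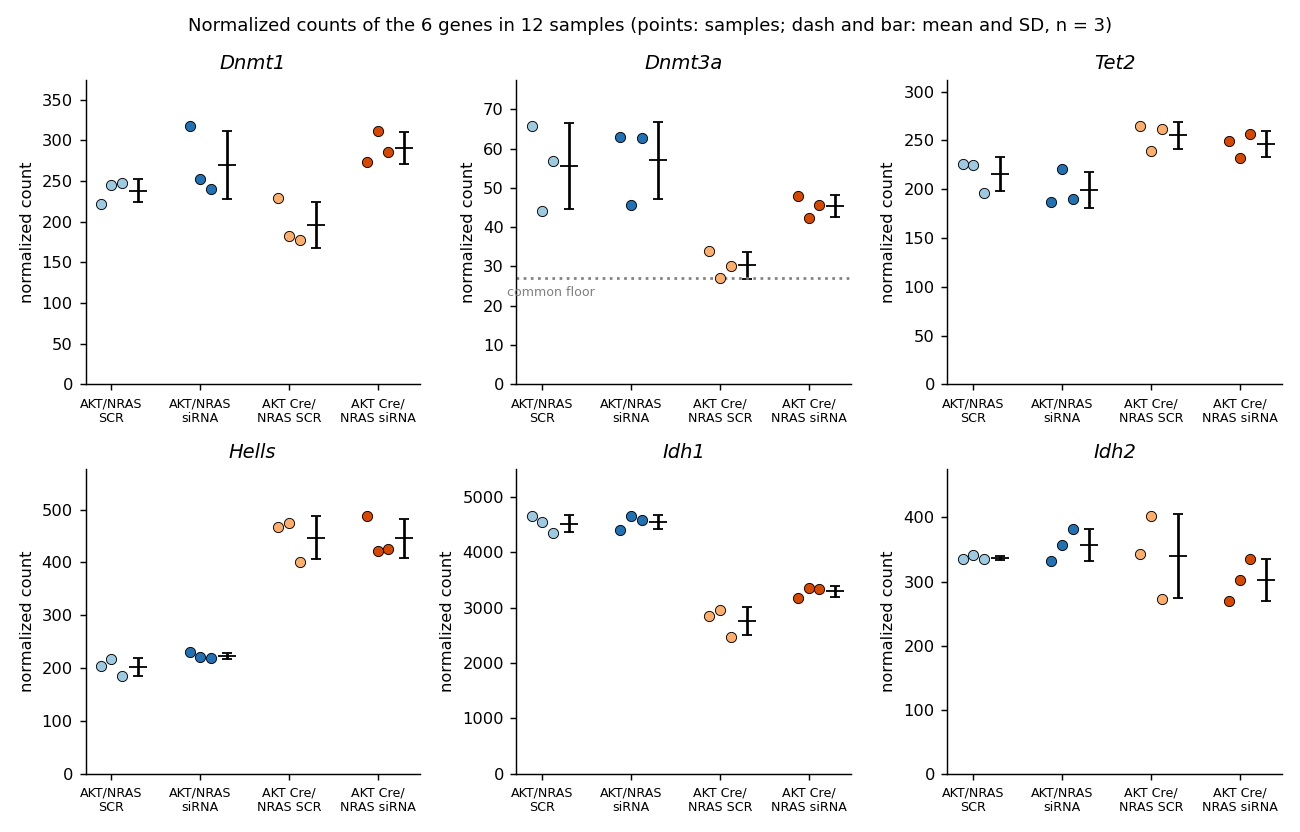
Normalized counts (vertical axes, starting at 0) of the 6 genes in the 4 groups, with a point for each sample and the mean and SD (n = 3) as a dash and bar beside them; the dotted line in the *Dnmt3a* panel is the common floor of 27.1. *Hells* lies at 400.2 to 489 in AKT Cre/NRAS and at 184 to 230.3 in AKT/NRAS, and *Dnmt1* and *Dnmt3a* have their lowest means in AKT Cre/NRAS SCR (196 and 30.4).

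The first question was what *Dusp4* silencing did to these genes in the line driven by NRAS alone. Both DNA methyltransferases were higher in AKT Cre/NRAS siRNA than in AKT Cre/NRAS SCR, *Dnmt1* by 1.49-fold and *Dnmt3a* by 1.48-fold, and *Idh1* was 1.20-fold higher, while *Tet2*, *Hells* and *Idh2* did not pass the test. *Dnmt1*, the maintenance enzyme, read 273, 312 and 286 normalized counts under siRNA and 229, 183 and 177 under SCR. Every siRNA sample lay above every SCR sample. The means were 291 ± 19.6 and 196 ± 28.4 (SD, n = 3), and the log2 fold change was 0.57 (SE 0.13, adjusted p = 0.00738 by limma). *Dnmt3a*, the de novo enzyme, read 48.0, 42.4 and 45.7 under siRNA and 33.9, 27.1 and 30.1 under SCR, where the second sample was at the common floor. Again the groups did not overlap. The log2 fold change was 0.57 (SE 0.13, adjusted p = 0.00738), and 0.62 (adjusted p = 0.0133) when that sample was not raised to the common floor. The whole panel was shifted upward in this comparison, with a median log2 fold change of 0.23. *Dnmt1* and *Dnmt3a* each lay 0.34 above that median.

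Among the other genes, *Idh1* read 3170.0, 3362 and 3345 under siRNA and 2849, 2953 and 2474 under SCR. The highest SCR sample was below the lowest siRNA sample, and the log2 fold change was 0.26 (SE 0.09, adjusted p = 0.0389). The median of all 503 genes tested was 0.23 on the same scale, so *Idh1* was close to the middle of the panel. *Tet2*, the eraser, read 249.9, 232 and 257 against 265, 239 and 262, a log2 difference of -0.05 (95% interval -0.29 to 0.19). *Hells*, the remodeller, read 489, 421 and 426 against 466, 475 and 400.2, a log2 difference of -0.0044 (-0.25 to 0.24). Both pairs of groups overlapped. *Idh2* read 269, 303 and 335 against 344, 403 and 273, with the widest spread of the 6 genes (log2 difference -0.16, -0.49 to 0.17).

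In this comparison 3 of the 6 genes were thus called higher and none lower, and the same 3 did not overlap between groups. Over all genes tested, 45.9% were called in either direction, 40.6% higher and 5.37% lower, and 60.0% did not overlap. The share among these 6 genes was therefore near the background. Under the 8 scalings tried, the *Dnmt1* difference stayed above 0 in all 8 (0.22 to 1.02) and was called in 5, and that of *Dnmt3a* stayed above 0 in all 8 (0.28 to 0.66) and was called in 4. With the values as deposited none of the 6 was called (*Dnmt1* 0.48, adjusted p = 0.473, *Dnmt3a* 0.54, adjusted p = 0.330), nor with the Benjamini-Yekutieli adjustment that the study's methods name. *Tet2* (-0.41 to 0.40) and *Idh2* (-0.51 to 0.29) were each called in 1 of the 8, and *Hells* (-0.36 to 0.45) in 2. Each of these differences was above 0 in 2 of the 8. *Idh1* was called in 3 of the 8. Re-centring on the median turned it to -0.10 and the split of calls over the panel from 204 higher and 27 lower to 32 and 136. Leaving out any 1 of the 6 samples kept the calls of *Dnmt1* (0.50 to 0.69) and *Dnmt3a* (0.49 to 0.65). *Idh1* kept its call only without SCR replicate 1 (0.28, adjusted p = 0.0234) and lost it without any of the other 5 samples (adjusted p 0.0519 to 0.141), and *Idh2* was called lower only without SCR replicate 3 (-0.31, adjusted p = 0.0362).

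**Figure D2:**
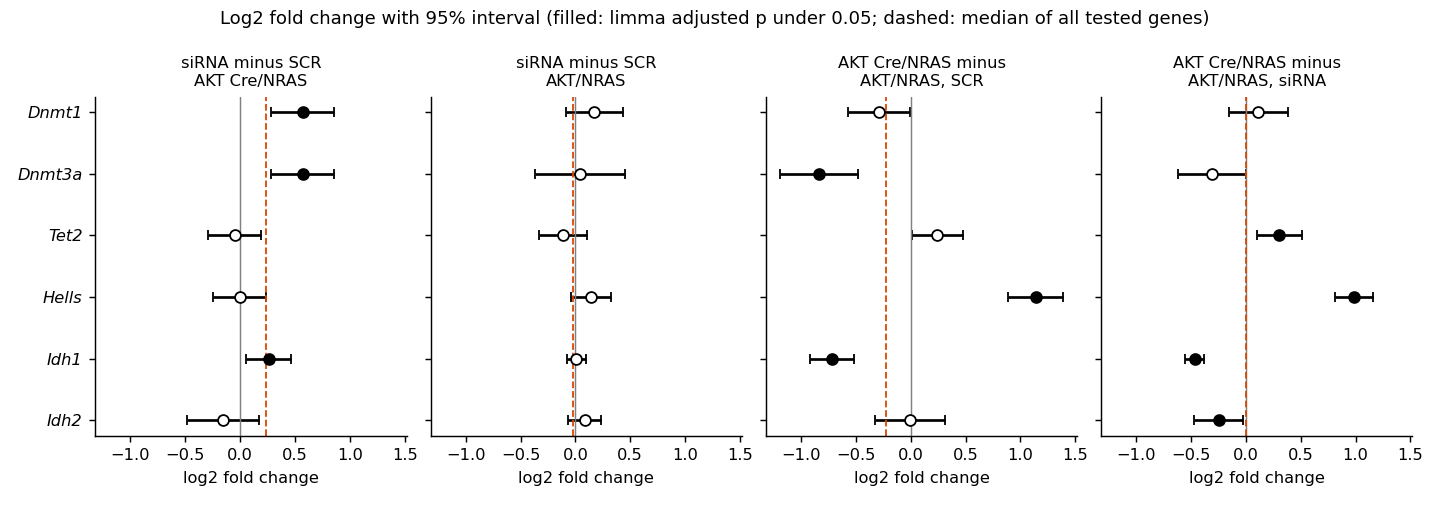
Log2 fold change (horizontal axes) of the 6 genes in 4 comparisons, with 95% intervals from limma, filled points for an adjusted p under 0.05 and a dashed line at the median of all genes tested. *Hells* is higher and *Idh1* lower in AKT Cre/NRAS in both comparisons of the lines, and after *Dusp4* siRNA the filled points are *Dnmt1*, *Dnmt3a* and *Idh1* in AKT Cre/NRAS and none in AKT/NRAS.

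The genes that work with these enzymes did not share a direction after silencing in AKT Cre/NRAS. Over all genes tested, 40.6% rose and 5.37% fell. Of 10 further DNA methylation partners on the panel, 9 were tested, and 2 rose and 2 fell (median log2 fold change -0.07, against 0.23 for all genes). That median was below the panel's under all 8 scalings and above 0 in 2 of them, and with the values as deposited 0 of the 9 rose or fell. Without single samples 2 or 3 rose and 0 to 3 fell (0 without siRNA replicate 2 or 3, 1 without siRNA replicate 1 or SCR replicate 2 and 3 without SCR replicate 1), and after re-centring 0 rose and 5 fell. *Smarca4*, the ATPase of the BAF remodelling complex, rose by 0.59 (adjusted p = 0.00519) and *Atrx*, a remodeller with a DNMT3-like zinc finger, by 0.55 (adjusted p = 0.00474). *Gadd45a*, linked to active demethylation and DNA repair, fell by 0.40 (adjusted p = 0.0138) and *Pcna*, the replication clamp that tethers DNMT1, fell by 0.36 (adjusted p = 0.0494). Among the 3 genes of 2-oxoglutarate-using histone demethylases and the citric acid cycle, *Kdm5c* rose by 0.53 (adjusted p = 0.00533) and the succinate dehydrogenase subunit *Sdha* by 0.44 (adjusted p = 0.0318), while *Kdm6a* had 0.27 (adjusted p = 0.0632). *Sdha* is itself 1 of the 15 reference genes, and with the values as deposited 0 of the 3 passed, as after re-centring, and 1 passed without any 1 of the siRNA samples or SCR replicate 2.

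Of 29 other chromatin modifiers, 28 were tested, and 21 rose and 0 fell, against 40.6% and 5.37% of all genes. The median of the list was 0.44. *Sap130* and *Hdac3* in this list are themselves reference genes, and *Sap130* was among those that rose. The acetyltransferases *Crebbp* (0.71) and *Ep300* (0.70), the histone methyltransferase *Setd2* (0.61) and the BAF subunit *Arid1a* (0.87) had the smallest p values in the list, with adjusted p between 0.00329 and 0.00355 by limma. The median of this list was above that of the panel under all 8 scalings, by 0.16 to 0.22, but the number that rose went from 0 with the values as deposited to 23, 6 rose and 2 fell after re-centring, and 0 passed an ordinary linear model per gene. Without single samples the number that rose was 12 to 22, with 12 without siRNA replicate 1, 13 without siRNA replicate 2 and 13 without SCR replicate 2. Of 18 genes of DNA replication and S phase, the phase in which *Dnmt1* and *Hells* are transcribed, 15 were tested, and 2 rose and 5 fell (median -0.08). *Ccne2*, encoding a cyclin of S phase entry, fell by 1.02 (adjusted p = 0.0046) and the replication-dependent histone *Hist1h3b* by 0.54 (adjusted p = 0.0198), while the phosphatase gene *Cdc25a* rose by 0.44 (adjusted p = 0.0086) and the helicase subunit *Mcm4* by 0.36 (adjusted p = 0.0245). Without single samples 0 to 4 of these replication genes rose and 1 to 6 fell. The counts were 1 and 2 without siRNA replicate 1, 1 and 1 without siRNA replicate 2 or SCR replicate 2, 0 and 1 without siRNA replicate 3, and 4 and 6 without SCR replicate 1. With the values as deposited 0 rose and 1 fell, after re-centring 0 rose and 9 fell, and the median was above 0 in 2 of the 8 scalings.

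The same silencing was then compared in AKT/NRAS, the line that keeps AKT. None of the 6 genes passed the test there (limma), and at an unadjusted p under 0.05 the count was also 0, and an ordinary linear model per gene called 0 as well. Over the 496 genes tested 17.3% were called. *Dnmt1* read 318, 252 and 240.3 normalized counts under siRNA and 222, 245 and 248 under SCR, so that only the first siRNA sample stood clear of the SCR samples by more than their own range (log2 difference 0.17, 95% interval -0.09 to 0.43). *Dnmt3a* read 62.8, 45.8 and 62.6 against 65.7, 44.1 and 56.8, with full overlap (0.04, -0.36 to 0.45). *Tet2* read 187, 220.4 and 190.5 against 226, 225 and 196 (-0.11, -0.33 to 0.10).

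*Hells* was the only gene of the 6 whose samples did not overlap in AKT/NRAS, against 34.7% of all genes tested. It read 230.3, 220.4 and 219.7 under siRNA and 205, 218 and 184 under SCR, a log2 difference of 0.15 (-0.04 to 0.33, adjusted p = 0.259). *Idh1* was the steadiest, with 4403, 4659 and 4578 against 4663, 4539 and 4353 (0.01, -0.08 to 0.09). *Idh2* read 333, 358 and 383 against 335, 341 and 335 (0.08, -0.07 to 0.23). With the values as deposited, 5 of the 6 genes were called higher in AKT/NRAS (all but *Tet2*), but under that scaling the median of all genes was itself 0.30 and the split of calls over the panel was 287 higher and 3 lower, against 27 and 59 with the reference genes. Of the partner lists in AKT/NRAS, 1 of 9 methylation partners rose and 3 fell, and 0 of 28 other chromatin modifiers rose and 4 fell. Of 16 replication genes, 5 rose and 1 fell. Over all 496 genes tested, 27 rose and 59 fell. Among the replication genes *Mcm7* rose by 0.27 (adjusted p = 0.00816) and the cyclin gene *Ccna2* fell by 0.52 (adjusted p = 0.00161). With the values as deposited 5 methylation partners, 18 other chromatin modifiers and 11 replication genes rose and none of these fell. Without single samples the replication genes that rose were 1 to 5 (1 without siRNA replicate 3, 2 without SCR replicate 1 or 2). The other chromatin modifiers that fell were then 0 to 3 (3 without siRNA replicate 1, 1 without SCR replicate 1 or 3 and 0 without any of the other samples). The methylation partners that fell were 1 or 2 (1 without siRNA replicate 3, SCR replicate 1 or SCR replicate 2), and 1 rose without siRNA replicate 1 and 0 without any other sample.

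Whether the siRNA response differed between the lines was tested as an interaction over all 12 samples. *Idh1* was the only gene of the 6 that passed, with a response higher in AKT Cre/NRAS by 0.25 (SE 0.09, adjusted p = 0.0446), and 45.3% of the 525 genes tested were called in either direction and 40.6% as higher. The median interaction of the panel was also 0.25. For *Dnmt1* the difference of responses was 0.40 (95% interval 0.02 to 0.78, adjusted p = 0.0785) and for *Dnmt3a* 0.53 (0.05 to 1.01, adjusted p = 0.0689), and neither passed. With the replicate number as a block, *Dnmt3a* passed (adjusted p = 0.00762) and *Dnmt1* did not (adjusted p = 0.0889). Same-numbered samples were paired by the rule used here in AKT Cre/NRAS but not in AKT/NRAS, and this fit uses both lines. *Tet2* had 0.06, *Hells* -0.15 and *Idh2* -0.24, none of which passed. Re-centring turned the *Idh1* value to -0.16, as the values as deposited did (-0.17), and the split over the panel from 213 higher and 25 lower to 50 and 151. The call of *Idh1* remained without each of the AKT Cre/NRAS SCR replicates (0.17 to 0.30) and was lost without any other sample (adjusted p 0.0510 to 0.0970). *Dnmt1* gained a call without AKT Cre/NRAS SCR replicate 1 (0.52, adjusted p = 0.0159) or AKT/NRAS siRNA replicate 1 (0.52, adjusted p = 0.0268), *Dnmt3a* without AKT Cre/NRAS SCR replicate 1 (0.61, adjusted p = 0.0421) or AKT/NRAS SCR replicate 2 (0.68, adjusted p = 0.0229), and *Idh2* without AKT Cre/NRAS SCR replicate 3 (-0.39, adjusted p = 0.0415).

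The lines were then compared with each other under each transfection, to see what came with the loss of the AKT construct. *Hells* was 2.20-fold higher in AKT Cre/NRAS than in AKT/NRAS under SCR and 1.98-fold higher under siRNA, and *Idh1* was lower under both. Under SCR, *Hells* averaged 447 ± 40.7 normalized counts in AKT Cre/NRAS and 202 ± 16.9 in AKT/NRAS (SD, n = 3), a log2 difference of 1.14 (SE 0.11, adjusted p = 1.98e-05). Under siRNA the means were 445 ± 37.6 and 223 ± 5.96, a log2 difference of 0.99 (SE 0.07, adjusted p = 1.04e-05). The lowest of the 6 AKT Cre/NRAS samples, at 400.2, was well above the highest of the 6 AKT/NRAS samples, at 230.3.

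*Idh1* averaged 2758 ± 252 in AKT Cre/NRAS and 4518 ± 156 in AKT/NRAS under SCR (log2 difference -0.72, SE 0.09, adjusted p = 8.31e-05), and 3292 ± 106 and 4546 ± 131 under siRNA (-0.47, SE 0.04, adjusted p = 1.63e-05). No sample of one line reached the range of the other. *Idh2*, the mitochondrial enzyme, averaged 340 ± 65.0 and 337 ± 3.25 under SCR (-0.01, 95% interval -0.32 to 0.31) and 302 ± 32.9 and 358 ± 25.0 under siRNA, where it passed the test with overlapping groups (-0.25, adjusted p = 0.0481). That call of *Idh2* remained only without AKT/NRAS siRNA replicate 1 (-0.30, adjusted p = 0.0409) or AKT Cre/NRAS siRNA replicate 3 (-0.32, adjusted p = 0.0184) and was lost without any of the other 4 samples (adjusted p 0.0961 to 0.148).

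*Tet2* was higher in AKT Cre/NRAS in both comparisons of the lines, and passed the test under siRNA (0.31, SE 0.09, adjusted p = 0.0133) but not under SCR (0.24, SE 0.10, adjusted p = 0.0571). Its 6 AKT Cre/NRAS samples ran from 232 to 265 and its 6 AKT/NRAS samples from 187 to 226. *Dnmt3a* went the other way. Under SCR it averaged 30.4 ± 3.42 in AKT Cre/NRAS and 55.5 ± 10.9 in AKT/NRAS, a log2 difference of -0.84 (SE 0.15, adjusted p = 0.00107), and under siRNA 45.4 ± 2.79 and 57.1 ± 9.79 with overlapping groups (-0.31, adjusted p = 0.0638). *Dnmt1* averaged 196 ± 28.4 and 238 ± 14.1 under SCR (-0.29, adjusted p = 0.0616) and 291 ± 19.6 and 270.0 ± 41.6 under siRNA (0.11, adjusted p = 0.397).

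Under SCR, 3 of the 6 genes were called between the lines and 4 did not overlap, where 76.9% of the 515 genes tested were called and 79.8% did not overlap. The calls were 1 higher and 2 lower, against 28.9% and 48.0% of all genes. Under siRNA, 4 of the 6 were called and 3 did not overlap, where 74.5% of the 522 genes tested were called and 76.6% did not overlap. The calls were 2 higher and 2 lower, against 36.6% and 37.9% of all genes. A difference between the lines was therefore the common case on this panel. Under siRNA, *Hells* (0.90 to 1.09), *Idh1* (-0.52 to -0.36) and *Tet2* (0.22 to 0.41) were called in all 8 scalings, *Idh2* in 5 and *Dnmt3a* in 3. Under SCR, where the libraries that stand apart enter, *Hells* (0.62 to 1.64), *Idh1* (-1.24 to -0.21) and *Dnmt3a* (-1.0 to -0.40) kept their direction in all 8 and were called in 7, whereas *Tet2* ran from -0.28 to 0.75 and *Dnmt1* from -0.81 to 0.22. The split of calls over the panel under SCR was 149 higher and 247 lower, and 202 and 99 with the values as deposited. Without AKT Cre/NRAS SCR replicate 1, *Dnmt1* was called lower under SCR (-0.40, adjusted p = 0.00569). Under siRNA, *Dnmt1* was called higher only without AKT/NRAS siRNA replicate 1 (0.24, adjusted p = 0.0387) and *Dnmt3a* lower only without AKT/NRAS siRNA replicate 2 (-0.46, adjusted p = 0.0023). The summed marker lists and the *Rpl19* to *Polr2a* ratio given above moved with the line as well, and their part in these differences was not tested.

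**Figure D3:**
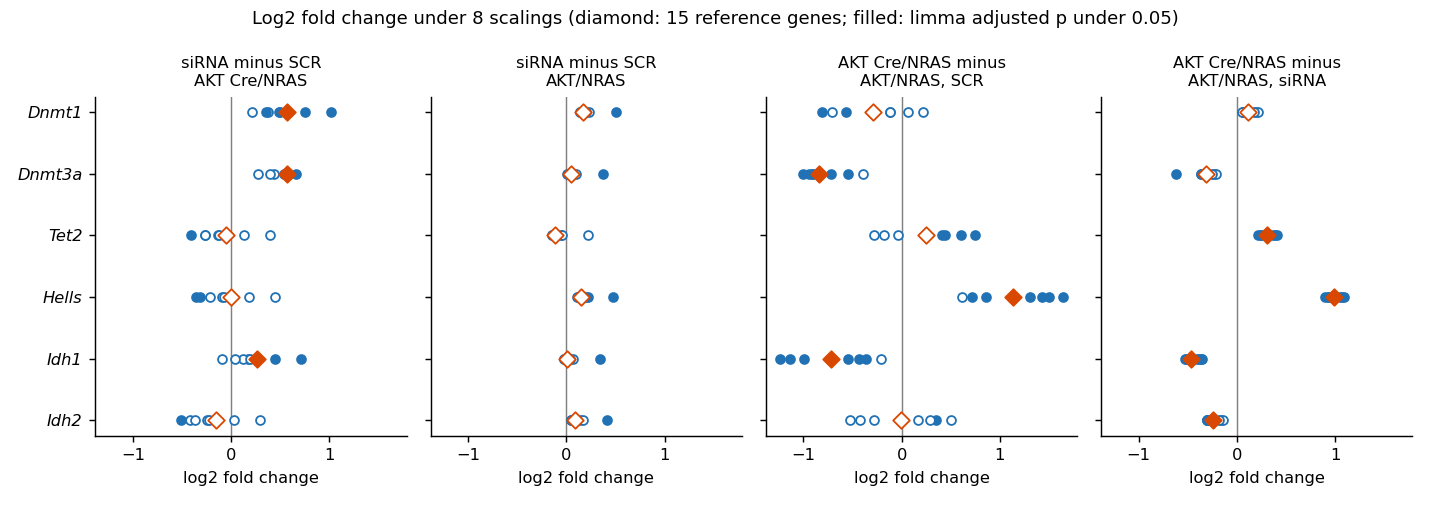
Log2 fold change (horizontal axes) of the 6 genes under 8 ways of bringing samples to a common level, with diamonds for the 15 reference genes, circles for the other 7 scalings and filled marks for an adjusted p under 0.05. *Hells* runs from 0.90 to 1.09 between the lines under siRNA and from 0.62 to 1.64 under SCR, whereas *Dnmt3a* spreads over -0.62 to -0.21 between the lines under siRNA and 0.28 to 0.66 after siRNA in AKT Cre/NRAS.

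The order of the groups differed from gene to gene. *Dnmt1* ran from AKT Cre/NRAS siRNA down through AKT/NRAS siRNA and AKT/NRAS SCR to AKT Cre/NRAS SCR, and each neighbouring pair overlapped. For *Dnmt3a* the AKT/NRAS groups came first and overlapped each other and AKT Cre/NRAS siRNA, and AKT Cre/NRAS SCR lay apart below. For *Tet2* and *Hells* the AKT Cre/NRAS groups came first and overlapped each other, with a gap to AKT/NRAS. For *Idh1* the AKT/NRAS groups came first and overlapped, and both AKT Cre/NRAS groups lay apart below.

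Of the partner lists, 6 of 9 methylation partners fell and 1 rose between the lines under SCR (median -0.58, against -0.22 for all genes), and 6 fell and 0 rose under siRNA (median -0.47, against -0.00053). Over all genes tested, 48.0% fell and 28.9% rose under SCR, and 37.9% fell and 36.6% rose under siRNA. *Hdac1*, a histone deacetylase that binds DNMT1, fell by 1.66 under SCR (adjusted p = 1.98e-07) and fell by 1.64 under siRNA (adjusted p = 9.32e-07). *Gadd45b* fell by 2.68 (adjusted p = 4.43e-08) and by 2.67 (adjusted p = 1.02e-06), and *Smarca4* fell by 1.53 and by 0.75. The median of this list was below 0 and below the panel's under all 8 scalings in both comparisons, but with the values as deposited 3 fell and 2 rose under SCR, and 5 fell and 0 rose under siRNA. Among 28 other chromatin modifiers, 20 fell and 4 rose under SCR (median -0.52), but 8 fell and 10 rose under siRNA (median 0.03, above 0 in 5 of the 8 scalings), and with the values as deposited 6 fell and 6 rose under SCR. The number rising under SCR was 2 without AKT Cre/NRAS SCR replicate 2 or AKT/NRAS SCR replicate 2 or 3, and 16 to 21 fell without single samples. *Arid1a* fell by 1.91 under SCR (adjusted p = 2.57e-06) and *Setbp1*, a SET binding protein gene, fell by 2.49 (adjusted p = 1.74e-06). The replication list included 9 genes higher and 3 lower of 16 under SCR (median 0.49) and 7 higher and 4 lower of 17 under siRNA (median 0.17), with a median above the panel's under all 8 scalings. *Hist1h3b* rose by 1.51 under SCR (adjusted p = 9.06e-06) and *Mcm7* by 0.55 under SCR (adjusted p = 0.000152) and 0.44 under siRNA (adjusted p = 1.5e-05), while *Rpa3*, a subunit of the single-strand binding protein, fell by 1.68 and by 2.44. The paper describes AKT Cre/NRAS as growing much more slowly than AKT/NRAS. How growth relates to the levels of *Hells* and the replication genes was not tested.

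Ratios of a pair of these genes within a sample do not depend on the factor by which that sample was scaled, apart from the floor under *Dnmt3a*, and they were compared for 4 pairs. In AKT Cre/NRAS, the mean log2 ratio of *Dnmt1* to *Hells* was higher under siRNA by 0.58, that of *Dnmt3a* to *Tet2* by 0.62 and that of *Idh1* to *Idh2* by 0.42, while that of *Dnmt1* to *Dnmt3a* differed by 0.0025. The *Dnmt1* to *Hells* log2 ratio was -0.84, -0.43 and -0.57 under siRNA and -1.02, -1.37 and -1.17 under SCR. The *Idh1* to *Idh2* log2 ratio was 3.55, 3.47 and 3.32 under siRNA and 3.05, 2.87 and 3.17 under SCR. The writer to eraser log2 ratio of *Dnmt3a* to *Tet2* was -2.36, -2.42 and -2.47 under siRNA and -2.93, -3.10 and -3.08 under SCR. In these 3 pairs every siRNA sample lay above every SCR sample, against 47.8% of all gene pairs that did not overlap.

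In AKT/NRAS the same log2 ratios differed by 0.02, 0.16, -0.07 and 0.13 (in the same order of pairs), and 0 of 4 were free of overlap, against 36.3% of all gene pairs. Between the lines all 4 pairs were free of overlap under SCR and under siRNA, where 82.4% and 82.9% of all gene pairs were. The *Dnmt1* to *Hells* ratio was lower in AKT Cre/NRAS by 1.43 under SCR, and the difference under siRNA was -0.87. The *Dnmt1* to *Dnmt3a* ratio was higher in AKT Cre/NRAS by 0.55 and 0.43, the *Dnmt3a* to *Tet2* ratio had differences of -1.08 and -0.62, and the *Idh1* to *Idh2* ratio had differences of -0.71 and -0.22. With 3 samples against 3, no exact two-sided permutation test can go below p = 0.1, the value in the 11 of 16 tests without overlap, and the Benjamini-Hochberg value over the 16 was 0.145.

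**Figure D4:**
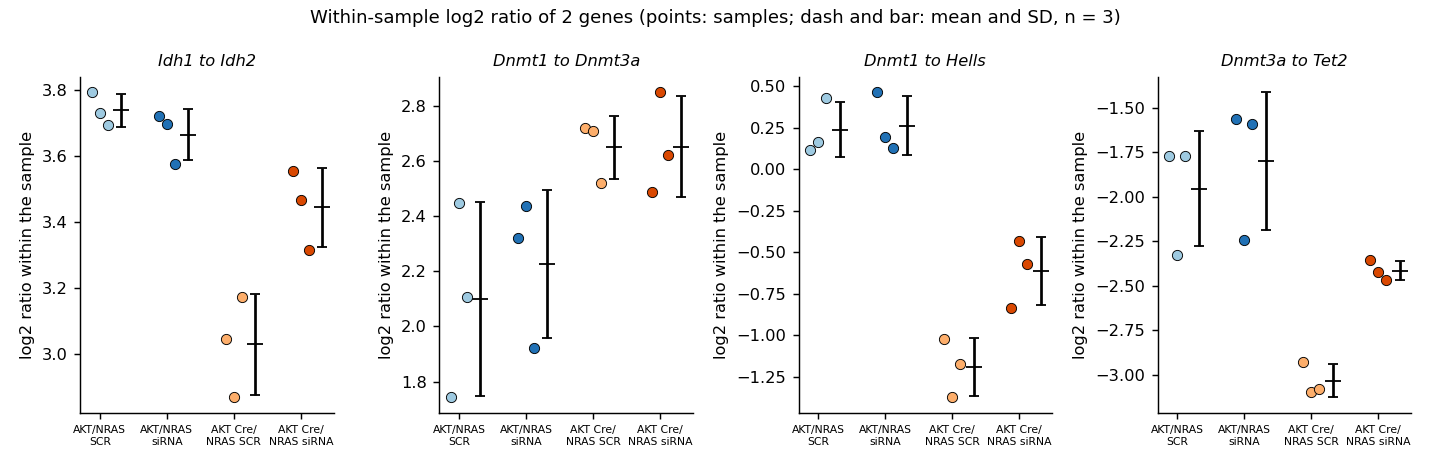
Log2 ratio of a pair of genes within each sample (vertical axes) for 4 pairs in the 4 groups, with a point for each sample and the mean and SD (n = 3) as a dash and bar. The AKT Cre/NRAS SCR samples are lowest for *Idh1* to *Idh2* (2.87 to 3.17), *Dnmt1* to *Hells* (-1.37 to -1.02) and *Dnmt3a* to *Tet2* (-3.10 to -2.93).

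The panel genes whose levels ran most like each of the 6 are given as a description. All 12 samples entered, and since the samples form groups of 2 lines, a high correlation can come from the line alone. *Idh1* ran most like the adaptor gene *Shc1* (Pearson r = 0.995), the receptor gene *Erbb2* (0.99) and the deacetylase gene *Hdac2* (0.99) among the 445 other genes above the floor in all samples. *Hells* ran most like *Igfbp3*, which encodes a binding protein of insulin-like growth factors (0.99), the translation factor gene *Eef1g* (0.99) and the homeobox gene *Hhex* (0.98). *Dnmt3a* was closest to *Pdgfb*, *Kmt2c* and *Cbl* (0.91 each), *Dnmt1* to *Ccnd3* (0.88), *Sap130* (0.87) and *Setd2* (0.87), and *Tet2* to *Endog* (0.90), *Map2k6* (0.88) and *Eif4ebp1* (0.87). *Sap130* is 1 of the reference genes. No gene followed *Idh2* as closely, and the highest was *Ppargc1a*, a coactivator gene of mitochondrial biogenesis, at 0.63. Among the 6 genes, r was -0.90 between *Hells* and *Idh1*, 0.82 between *Dnmt3a* and *Idh1*, 0.80 between *Tet2* and *Hells* and 0.58 between *Dnmt1* and *Dnmt3a*.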

How the data were processed

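The study measured 12 samples on the NanoString® Mouse PanCancer Pathways panel. A run number is the only name of each data column, and columns were matched to samples through the runs that the labels quote. The authors processed counts in nSolver. The deposited signal is, from its values, a barcode count times 1 factor per sample (0.827 to 1.27) with values up to 20 set to 20. Above the floor and under 3000, 100% of values gave whole counts (tolerance 0.02). Counts under the floor are not known, so no count model was used.

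The reference gene step that the methods name is not in these values, and was done by geNorm over all 12 samples, keeping 15 of 20 (the last genes of the table): *Abcf1*, *Alas1*, *Edc3*, *Eif2b4*, *G6pdx*, *Hdac3*, *Hprt*, *Nubp1*, *Oaz1*, *Polr1b*, *Ppia*, *Rpl19*, *Sap130*, *Sdha* and *Tbp*. Values were scaled to them, raised to a common floor of 27.1 and transformed as log2(value + 1). Genes at the floor in all samples of a comparison were dropped. Each comparison was fitted on its own samples with lmFit and trended eBayes of limma 3.58.1 (R 4.3.3), Benjamini-Hochberg adjustment and a threshold of 0.05, after the scripts were tested on simulated data. Python 3.11.15 and matplotlib 3.10.9 drew the figures.

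The 6 genes, the gene lists and the rule for naming genes (the 6, up to 4 genes per list with the smallest p, the 3 most alike genes, and *Dusp4*) were chosen with earlier results of these data known. *Rpl19*, *Polr2a* and genes named for a further comparison were singled out after their values were seen. The methods call the samples biological replicates, and since each line is a single line, p values measure the spread between such samples. Replicates of a group differed by 1.21 to 88.3 times the chi-square per degree of freedom that counting noise alone gives, over 446 genes. The range was 19.0 to 88.3 in AKT Cre/NRAS SCR and 2.55 to 17.1 in AKT Cre/NRAS siRNA. It was 1.33 to 4.49 in AKT/NRAS siRNA and 1.21 to 2.52 in AKT/NRAS SCR. Same-numbered AKT Cre/NRAS siRNA and SCR samples deviated together over genes (r = 0.22, 0.12 and 0.23), which pairs them by the rule used here, and the other comparisons did not meet it. Alternatives were other scalings, floors, filters, pseudocounts, adjustments, a block for the replicate, 1 fit over all groups, leaving out each sample and, added after seeing the data, an ordinary linear model.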

Additional observations from a re-analysis of the deposited data

Results flagged for a closer look

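The response of *Idh1* to *Dusp4* siRNA differed between the lines in the interaction test, by 0.25 on the log2 scale (adjusted p = 0.0446 by limma, higher in AKT Cre/NRAS). The log2 difference was 0.26 in AKT Cre/NRAS, where all 3 siRNA samples lay above the SCR samples, and 0.01 in AKT/NRAS, where they overlapped. The median interaction over the panel was 0.25, and 45.3% of genes were called, so *Idh1* was close to the middle of the panel. Its value ran from -0.17 to 0.73 over 8 scalings and was called in 4 of them. The call was lost in 9 of the 12 fits that left out a single sample.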

How the results depend on the processing

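Of 687 values of single genes under the alternatives, 548 kept their direction and their side of the threshold, 57 lost and 41 gained a call, and 41 changed sign. The values that changed sign reached 0.50, for *Idh2* between the lines under SCR with the values as deposited. Genes called over the panel after *Dusp4* siRNA in AKT Cre/NRAS were 231, and 0 to 297 under the alternatives (1 with the values as deposited, 56 with no filter, 70 with the Benjamini-Yekutieli adjustment, 0 by an ordinary linear model, 99 to 297 without single samples). The counts were 86 in AKT/NRAS (10 to 290), 396 between the lines under SCR (301 to 418), 389 under siRNA (333 to 404) and 238 for the interaction (32 to 307). Barcode counts of *Dnmt3a* limit its precision. The causes of these shifts were not tested.

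Of the 6 genes, 3 were called after siRNA in AKT Cre/NRAS. This became 0 with the values as deposited, the Benjamini-Yekutieli adjustment or an ordinary linear model. It became 1 with quantile normalization, reference genes chosen within the comparison or no filter. The number does not show which genes were called. *Tet2* and *Idh2*, not among the 3, were each called in 1 of the 8 scalings, and *Hells* in 2. In AKT/NRAS 0 became 5 with the values as deposited and 1 with quantile normalization. Between the lines, 3 became 5 under SCR after re-centring or with 1 fit over all 4 groups, and 4 became 2 under siRNA with the Benjamini-Yekutieli adjustment. For the interaction, 1 became 0 with the values as deposited, all 20 reference genes, no filter, genes above the floor in every sample (which drops *Dnmt3a*), no common floor, the Benjamini-Yekutieli adjustment, no intensity trend or an ordinary linear model. It became 2 with re-centring, quantile normalization or the replicate block, 3 with the first 10 or first 5 reference genes, and 0 to 3 without single samples.

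Log2 differences that changed sign were as follows. After siRNA in AKT Cre/NRAS, *Tet2* had 0.13 and 0.40 with the first 10 and first 5 reference genes, *Hells* 0.18 and 0.45, and *Idh2* 0.028 and 0.29. *Hells* ran from -0.082 to 0.041 without single samples, and *Idh1* had -0.10 after re-centring. In AKT/NRAS, *Tet2* had 0.22 with the values as deposited, and *Idh1* had -0.027 and -0.022 with the first 10 and first 5 reference genes. Without single samples *Dnmt3a* ran from -0.11 to 0.19 and *Idh1* from -0.017 to 0.032 there. Between the lines under SCR, *Dnmt1* had 0.22 with the values as deposited and 0.069 re-centred. *Tet2* had -0.034, -0.18 and -0.28 with the first 10, the first 5 and the within-comparison reference genes. *Idh2* had 0.50 as deposited, 0.35 re-centred, 0.29 after quantile normalization and 0.17 with all 20 reference genes, and -0.14 to 0.14 without single samples. For the interaction, *Dnmt1* had -0.020 as deposited and -0.011 re-centred, and *Idh1* -0.17 and -0.16. *Tet2* had -0.36 as deposited, -0.35 re-centred, -0.22 after quantile normalization and -0.0087 with all 20 reference genes. *Hells* had 0.071 and 0.33 with the first 10 and first 5 reference genes, and *Idh2* 0.24 with the first 5.

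Of the within-sample log2 ratios, quantile normalization moved *Idh1* to *Idh2* between the lines under siRNA to -0.052, *Dnmt1* to *Dnmt3a* between the lines to 0.89 under SCR and 0.68 under siRNA, and *Dnmt3a* to *Tet2* to 0.70 after siRNA in AKT Cre/NRAS and -1.44 between the lines under SCR. A pseudocount of 20 moved the latter 2 to 0.43 and -0.80.

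With the replicate block in the paired AKT Cre/NRAS comparison, *Dnmt1* (adjusted p = 0.000989), *Dnmt3a* (0.00374) and *Idh1* (0.0251) kept their calls there and the panel count was 263. The interaction holds that pair together with the AKT/NRAS samples, whose same numbers did not meet the rule. The block added a call of *Dnmt3a* there (0.00762). In the other comparisons same-numbered samples did not meet the rule either (r from -0.08 to 0.21). Between the lines under siRNA, r was 0.21 and 0.16 for replicates 1 and 3, against at most -0.05 and 0.03 for other numbers. Replicate 2 had 0.03, against up to 0.06 for another number. In that comparison the block added a call of *Dnmt3a* (0.0210). It changed no other call of the 6 genes.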

Other observations

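Genes known from other work for promoter methylation in tumours were counted as a list, 18 of them on the panel. Their own methylation was not measured. In AKT Cre/NRAS, 5 of 11 tested rose after *Dusp4* silencing and 0 fell, with a median log2 fold change of 0.26 against 0.23 for all genes, of which 40.6% were called higher. The share of this list was thus near the background. These included *Apc* (0.54), which encodes a Wnt pathway scaffold, the cytokine signalling inhibitors *Socs3* (0.54) and *Socs1* (0.65), and *Cdh1* (0.52), which encodes E-cadherin, with adjusted p between 0.00444 and 0.00903 by limma. With the values as deposited 0 of these genes rose, after re-centring 0 rose and 4 fell, and without single samples 3 to 6 rose (3 without siRNA replicate 1). In AKT/NRAS 0 of 11 rose and 1 fell, the calcium channel gene *Cacna1g*, which fell by 0.64 (adjusted p = 0.00682). Over all 496 genes tested there, 27 rose and 59 fell. With the values as deposited 6 of the list rose, and without siRNA replicate 3, 2 fell.

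Between the lines, 6 of 12 of these genes were higher and 4 lower in AKT Cre/NRAS under SCR, and 8 were higher and 3 lower under siRNA. Over all genes tested 28.9% were called higher and 48.0% lower under SCR, and 36.6% and 37.9% under siRNA, so that being called was the common case. *Igfbp3* averaged 975 normalized counts in AKT Cre/NRAS and 46.7 in AKT/NRAS under SCR (log2 difference 4.35, adjusted p = 4.4e-08), and *Socs2* averaged 1789 and 305 (2.55, adjusted p = 4.23e-08). *Gas1*, a growth arrest gene, averaged 1329 in AKT Cre/NRAS and 30.5 in AKT/NRAS, close to the floor of 27.1. *Cdh1* was lower in AKT Cre/NRAS under siRNA, at 5727 against 13199.5 (it fell by 1.20, adjusted p = 3.48e-08).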
